A study of Oreochromis mossambicus with 12 samples.

Results

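The comparison described here sets head-kidney leukocytes of tilapia exposed to nitrite against the same kind of cells given PBS, a saline buffer. It uses 6 of the 12 RNA sequencing libraries of the study, 3 per group, and was defined by the treatment in the labels: sodium nitrite at 1000 μM in the nitrite group and PBS alone in the other, each for 12 h. The remaining 6 libraries are of co-treated cells, which received the same nitrite dose plus heat-killed S. agalactiae, a streptococcal pathogen of fish, at 1 MOI (bacteria per cell), and of cells that received the bacteria alone. They enter below as a second, separate measurement of nitrite (co-treatment minus bacteria) that shares no library with nitrite minus PBS. All 4 groups were primary cells of Oreochromis mossambicus, kept overnight on plastic coated with rat tail collagen, with tilapia serum in the medium, before treatment. Nothing in the labels states if replicates are different fish or different cultures. Unless stated, a p-value therefore reflects only the library-to-library spread left once group and replicate number are fitted, and that spread may be technical.

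The head kidney is the chief blood-forming organ of bony fish, and its leukocyte fraction mixes granulocytes, macrophages, lymphocytes and precursors. Nitrite is an intermediate of the nitrogen cycle that builds up in fish ponds; it enters fish mainly through chloride uptake, oxidises haemoglobin and can be reduced to nitric oxide in tissues. Cells meet oxidants and reactive nitrogen with a set of defences: glutathione synthesis and NADPH supply, which in mammals are under the transcription factor NRF2, heme oxygenase, chaperones, and the proteasome, the protease complex that degrades ubiquitin-tagged and oxidised proteins. Heat-killed bacteria act instead through pattern receptors, NF-κB and cytokines.

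Values were deposited as FPKM, a measure of fragments normalised for transcript length and for the size of each library. Transcripts were summed per gene symbol, and 12423 genes averaging 1 FPKM or more across all 12 libraries entered the test on the log2(FPKM + 1) scale; 6756 of them carry a symbol other than an unnamed LOC identifier. FPKM sums ran from 422129 to 503740, and no read counts were used. Each nitrite library was compared with the PBS library of the same replicate number. A pair difference below is nitrite minus PBS in log2(FPKM + 1), so it understates the change of genes with low values.

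PBS replicate 1 stood apart from the other libraries. Genes of cytosolic ribosomal proteins made up 16.1%, 16.1% and 17.2% of the FPKM sum in nitrite replicates 1, 2 and 3, against 4.98%, 17.6% and 16.4% in PBS replicates 1, 2 and 3. It was also the shallowest library, at about 0.844 times the depth of PBS replicate 2 by the step size of its low values, and 95 tested genes were listed at 0 in it, against 39 to 55 in each of the other 11 libraries. Pair 1 was therefore unlike the others. Its differences had a standard deviation (SD) over genes of 0.876, against 0.224 in pair 2 and 0.194 in pair 3, and 16% of genes differed by at least 1 in either direction in pair 1, against 0.0644% in pair 2 and 0.137% in pair 3. Across genes, which are not independent replicates, pair 1 correlated with pairs 2 and 3 at r = 0.0392 and 0.136, and pairs 2 and 3 with each other at r = 0.155. Most gene values below are therefore given by library or by pair, and the fitted difference of a single gene is followed by its value without pair 1.

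**Figure D1:**
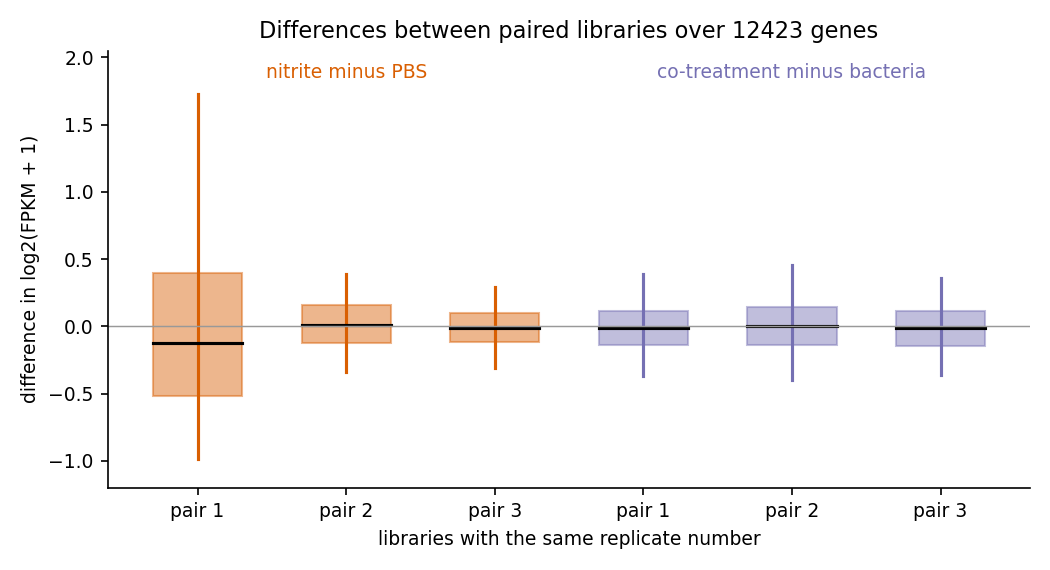
Spread of the differences in log2(FPKM + 1) between libraries of the same replicate number over the 12423 tested genes, for nitrite minus PBS (orange) and co-treatment minus bacteria (purple). Boxes span the 25th to 75th percentile, vertical lines the 5th to 95th and black bars the median; pair 1 of nitrite minus PBS, which holds PBS replicate 1, is the widest, with an SD of 0.876 over genes against 0.224 and 0.194 in pairs 2 and 3.

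**Figure D2:**
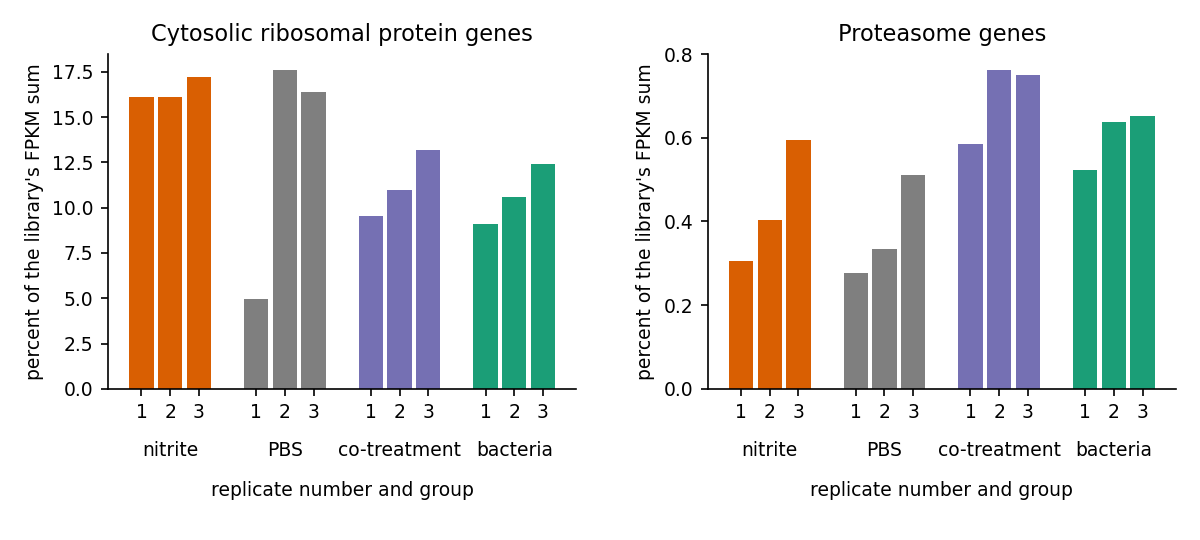
Percent of each library's FPKM sum held by cytosolic ribosomal protein genes (left) and by proteasome genes (right), 1 bar per library with its replicate number. PBS replicate 1 holds 4.98% ribosomal protein FPKM, while each nitrite bar of the proteasome panel is above the PBS bar of the same number, and each co-treatment bar above its bacteria bar. Between nitrite and PBS replicate 1 the classes of proteasome subunit differ in sign.

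No gene passed the test for nitrite against PBS. Of 12423 genes, 0 (0%) had a Benjamini-Hochberg adjusted p under 0.05 in the limma fit, and the lowest adjusted p was 0.675; without pair 1 the count was also 0 and the lowest adjusted p 0.594. At an unadjusted p under 0.05 there were 489 genes (3.94%), 211 higher and 278 lower in nitrite, and 318 (2.56%) without pair 1; 621 would be expected if no gene differed. The median standard error (SE) of a gene's log2 difference was 0.193, and 0.145 without pair 1. Each SE comes from one fit of all 4 groups, so it is not the spread of the nitrite minus PBS pairs alone. Nitrite and PBS libraries did not overlap in 361 genes (2.91%). All 3 pair differences were above 0 in 1635 genes (13.2%) and below 0 in 2170 (17.5%), and they reached at least 0.5 in the same direction in 10 genes that were higher (0.0805%) and 6 that were lower in nitrite (0.0483%). In pairs 2 and 3 alone, 3348 genes (27%) were above 0 in both and 3364 (27.1%) below 0 in both. The gene values that follow are therefore measurements, none of which passed the test over all genes.

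The second measurement gives a set of libraries against which these small differences can be read. For co-treatment against bacteria, 4 genes (0.0322%) passed at a limma adjusted p under 0.05. The 3 pair differences were above 0 in 2624 genes (21.1%) and below 0 in 2980 (24%). The interaction of nitrite with bacteria was called for 1 gene (0.00805%). That gene, LOC100692258, was also among the 4. Its 3 co-treatment values were each listed at 0, which can be a failed estimate. Over all genes the mean of pairs 2 and 3 of nitrite minus PBS correlated with the mean of the 3 co-treatment pairs at r = 0.285 (Spearman 0.33), given as a description, since libraries with the same number deviate together in all 4 groups. Pairs 2 and 3 and the 3 co-treatment pairs were above 0 together in 1202 genes (9.68%) and below 0 together in 1175 (9.46%).

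In pairs 2 and 3 most genes of the proteasome were slightly higher in nitrite, although none passed the test. Of the 30 proteasome symbols in the table, 29 were tested and psmb8, an immunoproteasome subunit, was under 1 FPKM. Both pair 2 and pair 3 were above 0 in 27 of the 29, where 27% of all genes were, and none was below 0 in both. With pair 1 included, 19 of the 29 were above 0 in all 3 pairs, where 13.2% of all genes were. The median difference was 0.26 in pair 2 and 0.23 in pair 3, that is 1.2-fold and 1.17-fold, against medians of 0.01 and -0.01 over all genes. In the libraries with bacteria, 26 of the 29 were above 0 in all 3 pairs, where 21.1% of all genes were, with medians of 0.15, 0.23 and 0.19. No proteasome gene passed the test: the lowest unadjusted limma p of a member was 0.0515, and 0.0584 without pair 1. Nitrite and PBS libraries overlapped in each of the 29, where 2.91% of all genes had groups that did not overlap, and the level varied with the replicate number: proteasome genes took 0.305%, 0.403% and 0.594% of the FPKM sum in nitrite replicates 1, 2 and 3, against 0.276%, 0.335% and 0.511% in PBS replicates 1, 2 and 3. Within each number the nitrite library was the higher, but in replicate 1 the classes of subunit disagreed. Alpha subunits took 0.0817% in nitrite replicate 1 against 0.0847% in PBS replicate 1, and non-ATPase subunits 0.091% against 0.105%. Beta subunits took 0.0783% against 0.0486%, and ATPases 0.0545% against 0.0367%.

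The count in pairs 2 and 3 was shared by all classes of subunit. The 6 alpha subunits matched by symbol, of the outer rings and gate of the core particle, were all above 0 in pairs 2 and 3, with a median of 0.22 and 0.30. psma5 was at 57.7, 83.9 and 129 FPKM in nitrite replicates 1, 2 and 3, against 62.7, 65.8 and 103 FPKM in PBS, so that the nitrite library was lower in pair 1 and higher in pairs 2 and 3. The 5 beta subunits tested, of the inner rings that hold the catalytic sites, were likewise all above 0 in both pairs. psmb1 had 82.5, 125 and 177 FPKM in nitrite and 87.0, 101 and 143 FPKM in PBS, with differences of -0.08, 0.31 and 0.31. Its co-treatment minus bacteria differences were 0.11, 0.14 and 0.17.

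Among the 6 ATPases of the regulatory particle, psmc1 to psmc6, which unfold substrates and thread them into the core, all were above 0 in pairs 2 and 3 and in the 3 co-treatment pairs. psmc5 was at 38.7, 50.3 and 77.5 FPKM in nitrite, against 24.2, 40.5 and 58.5 FPKM in PBS, a log2 difference of 0.45 ± 0.21 (SE), and of 0.35 ± 0.16 without pair 1. psmc1 had 57.2, 75.3 and 113 FPKM in nitrite and 41.8, 62.8 and 94.1 FPKM in PBS. Each nitrite library of both genes was above the PBS library of its number, while the groups overlapped.

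Of the 12 non-ATPase symbols, 9 were above 0 in pairs 2 and 3 and in all 3 co-treatment pairs. psmd14, the deubiquitinase of the regulatory particle, had 34.8, 46.4 and 71.0 FPKM in nitrite and 20.1, 38.2 and 58.4 FPKM in PBS. The other 3 were psmd5, psmd9 and psmd10, which in mammals encode chaperones that assemble the regulatory particle and then leave it. psmd9 differed by -0.37 in pair 2 and 0.22 in pair 3, psmd5 by -0.02 and 0.03, and psmd10 by 0.03 and 0.16. They were the 3 proteasome symbols outside the shared pattern: all 26 other symbols tested were above 0 in pairs 2 and 3 and in the 3 co-treatment pairs. This division of the symbols was made after their values were seen.

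Pair 1 was different for the proteasome too. Its differences ran from -1.0 to 4.44, against -0.37 to 0.45 in pair 2. The extremes came from PBS replicate 1. psmd3, a scaffold subunit, had 68.5, 83.5 and 113 FPKM in nitrite, against 2.19, 70.8 and 91.3 FPKM in PBS, and psmb4 had 80.9, 91.0 and 144 FPKM in nitrite, against 4.49, 78.8 and 114 FPKM in PBS. In the opposite direction, psmd8 had 45.7, 70.1 and 93.6 FPKM in nitrite and 92.4, 51.0 and 79.9 FPKM in PBS. The median log2 difference of the 29 genes was 0.31 with pair 1 and 0.26 without it.

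Proteasome partners, a list of 16 genes chosen after the subunits had been seen, were mostly above 0 in pairs 2 and 3 but not in pair 1. Both pairs 2 and 3 were above 0 in 14 of 16, where 27% of all genes were, and all 3 co-treatment pairs in 11 of 16, where 21.1% were. The medians were -0.25 in pair 1 and 0.15 in each of pairs 2 and 3; all 3 pairs were above 0 in 6 of 16, where 13.2% of all genes were, and the median fitted difference was 0.05, or 0.17 without pair 1. vcp, the ATPase that extracts ubiquitinated proteins for degradation, had 90.3, 88.0 and 131 FPKM in nitrite and 73.6, 78.3 and 113 FPKM in PBS. nfe2l1, which in mammals encodes the transcription factor of proteasome genes, had 14.6, 14.6 and 13.1 FPKM in nitrite and 20.1, 11.9 and 11.1 FPKM in PBS, so its sign in pair 1 was opposite to that in pairs 2 and 3. The exceptions were psme3, a nuclear activator, and psmg4, an assembly chaperone, which differed by -0.09 in pair 3 and by -0.33 in pair 2.

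**Figure D3:**
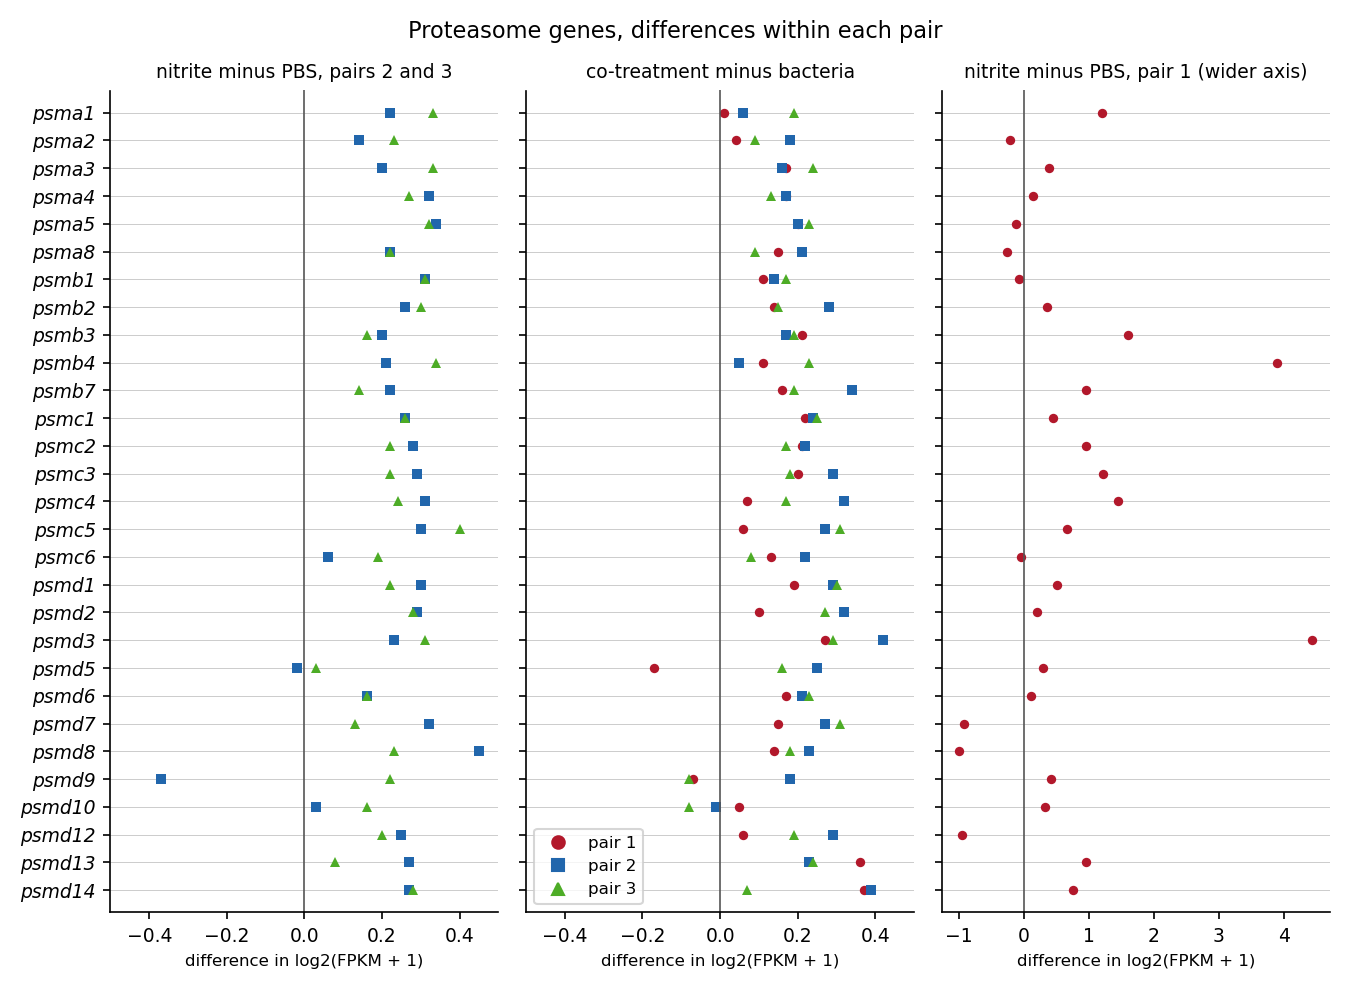
Difference in log2(FPKM + 1) of each of the 29 tested proteasome genes, for pairs 2 and 3 of nitrite minus PBS (left), the 3 pairs of co-treatment minus bacteria (middle) and pair 1 of nitrite minus PBS (right, on a wider axis). Points lie to the right of 0 for 27 genes in both pairs 2 and 3 and for 26 in all 3 co-treatment pairs, while pair 1 runs from -1.0 to 4.44.

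The 3 genes that make glutathione were higher in nitrite in every pair. gclc, the catalytic subunit of glutamate-cysteine ligase, the rate-limiting enzyme of the pathway, was at 23.6, 37.9 and 42.8 FPKM in nitrite replicates 1, 2 and 3, against 18.7, 27.6 and 25.7 FPKM in PBS. gclm, its modifier subunit, was at 21.1, 31.0 and 37.4 FPKM in nitrite, against 18.3, 21.2 and 24.3 FPKM in PBS. gss, glutathione synthetase, was at 31.4, 38.5 and 68.4 FPKM in nitrite, against 23.5, 23.6 and 47.2 FPKM in PBS. The groups overlapped for each of the 3, but no pair went the other way. For gclc and gclm only nitrite replicate 1 lay within the PBS range. For gss nitrite replicates 1 and 2 both lay below PBS replicate 3. The pair differences of gss were 0.40, 0.68 and 0.53. The limma adjusted p was 0.675 for gclc and gclm and 0.677 for gss. The log2 differences were 0.49 ± 0.17 for gclc, 0.44 ± 0.15 for gclm and 0.54 ± 0.39 for gss (SE of the fit of all 4 groups). Without pair 1 they were 0.58 ± 0.18, 0.56 ± 0.14 and 0.60 ± 0.44. Co-treatment minus bacteria was above 0 in all 3 pairs of each gene as well, at 0.44, 1.13 and 0.58 for gclc, 0.83, 0.81 and 0.60 for gclm, and 0.99, 0.99 and 0.72 for gss.

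The other glutathione genes varied. Of the 15 tested genes of glutathione synthesis and use, 5 were above 0 in all 3 pairs, where 13.2% of all genes were. Below 0 in all 3 was 1, where 17.5% of all genes were. In both pairs 2 and 3, 6 were above 0 and 3 below 0, where 27% and 27.1% of all genes were. Besides gclc, gclm and gss, the 5 held slc3a2, the heavy chain that pairs with the cystine transporter, and glrx, a glutaredoxin. slc3a2 had 106, 93.4 and 59.4 FPKM in nitrite and 77.7, 72.5 and 58.6 FPKM in PBS, differences of 0.44, 0.36 and 0.02, and was above 0 in the 3 co-treatment pairs too, at 0.23, 0.21 and 0.07. glrx differed by 0.57, 0.14 and 0.14, and by 0.02, 0.14 and -0.02 in the co-treatment pairs. slc7a11, which imports the cystine from which glutathione is made, was at 23.3, 27.0 and 37.3 FPKM in nitrite, against 27.9, 27.2 and 34.0 FPKM in PBS, differences of -0.25, -0.01 and 0.13. In the libraries with bacteria its 3 differences were above 0, at 0.55, 0.73 and 0.15. gpx4, the lipid peroxide reductase, had 8.31, 13.7 and 7.62 FPKM in nitrite and 11.9, 8.73 and 5.71 FPKM in PBS, so that it was lower in pair 1 and higher in pairs 2 and 3. gsr, which regenerates reduced glutathione, differed by 0.02, -0.11 and 0.27. gstk1, a mitochondrial glutathione transferase, was the member below 0 in all 3 pairs, with 13.7, 14.9 and 9.80 FPKM in nitrite and 20.2, 16.5 and 13.5 FPKM in PBS.

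Among the 9 tested genes of the NRF2 pathway and heme breakdown, 4 were higher in nitrite in all 3 pairs, where 13.2% of all genes were. me1, the cytosolic malic enzyme that supplies NADPH, had 54.7, 81.7 and 77.8 FPKM in nitrite and 19.7, 52.1 and 64.2 FPKM in PBS, with a log2 difference of 0.78 ± 0.21 and the lowest unadjusted limma p of a gene with a name on the higher side (0.00452). Without pair 1 the difference was 0.46 ± 0.16, and co-treatment minus bacteria gave 0.60, 0.95 and 0.51. sqstm1, an autophagy receptor that in mammals binds the NRF2 inhibitor KEAP1, had 329, 347 and 355 FPKM in nitrite and 18.0, 280 and 225 FPKM in PBS. Its groups did not overlap, but the value of 18.0 FPKM in PBS replicate 1 set most of the log2 difference of 1.69 ± 0.71; without pair 1 it was 0.48 ± 0.13. hmox1, heme oxygenase, was abundant in both groups, at 1138, 1070 and 775 FPKM in nitrite and 824, 784 and 703 FPKM in PBS, with co-treatment differences of 0.54, 0.89 and -0.22. blvrb, a biliverdin reductase, was the fourth, at 0.45, 0.22 and 0.16, and was below 0 in the 3 co-treatment pairs, at -0.16, -0.38 and -0.37.

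The regulators themselves had no common sign. nfe2l2, the gene of NRF2, was at 95.3, 98.8 and 116 FPKM in nitrite and 84.8, 105 and 122 FPKM in PBS, and keap1 differed by -0.41, 0.05 and 0.24. The NRF2-linked sugar phosphate enzymes pgd and taldo1 were above 0 in pairs 1 and 3 and below 0 in pair 2. srxn1, which repairs peroxiredoxins, was at 3.17, 3.24 and 2.36 FPKM in nitrite and 4.10, 3.66 and 2.26 FPKM in PBS. Superoxide dismutases were not higher in nitrite: sod2, the mitochondrial form, was at 19.3, 20.4 and 24.4 FPKM in nitrite and 26.6, 22.1 and 26.7 FPKM in PBS, below 0 in all 3 pairs. sod1, the cytosolic form, differed by -1.34, -0.07 and -0.02. Of the 11 tested thioredoxin, peroxiredoxin and dismutase genes, 2 were above 0 and 3 below 0 in all 3 pairs. Over all genes, 13.2% were above 0 and 17.5% below 0 in all 3. Several usual markers of this response, among them nqo1, txnrd1, cat and prdx1, were not matched by symbol and were not analysed here.

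**Figure D4:**
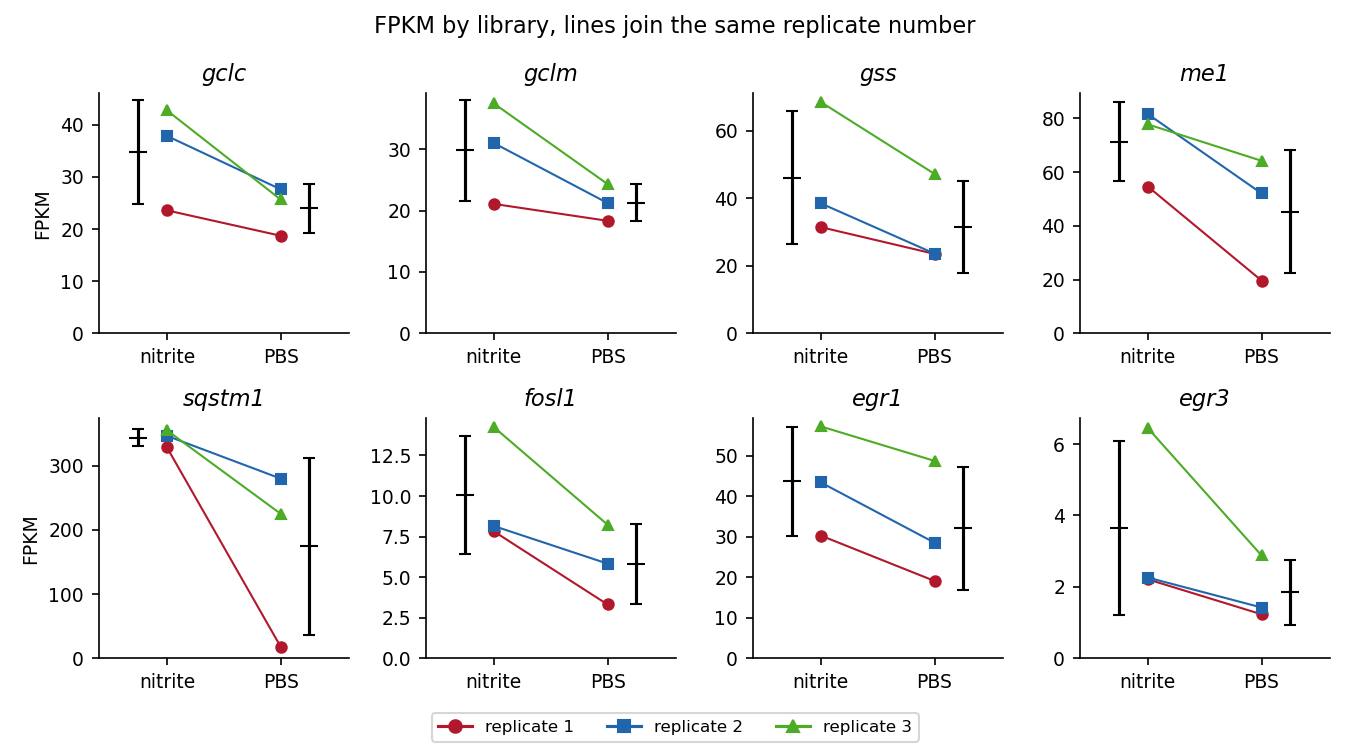
FPKM in each nitrite and PBS library for 5 genes of glutathione synthesis, NADPH supply and the NRF2 pathway and 3 immediate-early genes, with lines joining libraries of the same replicate number and black bars for the mean ± SD of 3 libraries beside each group. The genes shown were picked after their values were seen, from those higher in nitrite in all 3 pairs. Every line therefore slopes down to the PBS side, while other members of the same lists had mixed signs. The steepest line is sqstm1 replicate 1, at 329 FPKM in nitrite against 18.0 FPKM in PBS.

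Of 13 tested genes of the AP-1 and EGR list, which holds immediate-early transcription factors, 7 were higher in nitrite in all 3 pairs, where 13.2% of all genes were, and none was lower in all 3. The same 7 (fosl1, nr4a3, jund, egr1, egr2, egr3 and ier2) were above 0 in all 3 co-treatment pairs. The other 6 were of mixed sign in nitrite minus PBS. Over the list, 9 of the 13 were above 0 in all 3 co-treatment pairs, where 21.1% of all genes were. Below 0 in all 3 were 2, where 24% of all genes were. egr1, a zinc-finger factor induced by growth factor and stress signals, was at 30.3, 43.4 and 57.3 FPKM in nitrite and 19.1, 28.5 and 48.7 FPKM in PBS. egr3 had 2.21, 2.26 and 6.45 FPKM in nitrite and 1.23, 1.42 and 2.88 FPKM in PBS, with a log2 difference of 0.63 ± 0.21 and an unadjusted limma p of 0.0135, or 0.69 ± 0.26 and 0.0306 without pair 1. fosl1, a FOS-family subunit of AP-1, had 7.82, 8.15 and 14.3 FPKM in nitrite and 3.31, 5.83 and 8.23 FPKM in PBS, and 79.7, 117 and 52.7 FPKM in co-treated cells, against 39.7, 57.5 and 28.9 FPKM with bacteria alone. In each of these genes the nitrite library of a number exceeded the PBS library of that number.

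Among these 6, fosl2 was at 99.7, 119 and 97.4 FPKM in nitrite and 95.3, 117 and 101 FPKM in PBS, within 0.06 of 0 in every pair. atf3, a stress-induced repressor, differed by -0.27, 0.24 and -0.17, and klf2, a quiescence factor of leukocytes and endothelium, by 0.65, -0.24 and -0.52. myc was at 10.3, 14.9 and 14.5 FPKM in nitrite and 1.6, 17.3 and 12.3 FPKM in PBS, another gene whose pair 1 difference of 2.12 came from a low PBS replicate 1. The median of the list was 0.24 in pair 2, 0.21 in pair 3 and 0.25 for co-treatment minus bacteria; its median fitted difference was 0.39, and 0.11 without pair 1.

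Genes were also ranked by the size of the smallest of their 3 pair differences. This was done among genes with 3 differences of the same sign that reach 5 FPKM in the higher group. These values chose the genes and are given as a description. The 12 named genes at the higher end were slco2a1, nrp1, slc30a1, granulin, dhrs1, fosl1, fasn, gss, zgpat, bhlhe41, socs1 and nr4a3, with log2 differences of 0.42 to 0.92. The last inside, nr4a3, and the first outside, prmt5, both had a smallest pair difference of 0.32. In the co-treatment libraries, which the ranking did not use, 8 of the 12 were above 0 in all 3 pairs, where 21.1% of all genes were, and 10 had a mean above 0, where 47.7% of all genes did. None of the 12 was called there.

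The roles of these genes differ. slc30a1, the zinc exporter of the plasma membrane, was at 12.4, 16.1 and 20.6 FPKM in nitrite and 2.77, 11.3 and 14.6 FPKM in PBS, and at 47.3, 67.5 and 46.5 FPKM in co-treated cells, against 28.8, 43.7 and 32.7 FPKM with bacteria. Its groups overlapped in nitrite and PBS but the 3 pairs and the 3 co-treatment pairs all lay between 0.47 and 1.82. dhrs1, a short-chain dehydrogenase, had 21.2, 26.2 and 27.6 FPKM in nitrite and 15.6, 17.1 and 20.3 FPKM in PBS, without overlap, and its co-treatment differences were larger, at 1.30, 1.25 and 0.77. nrp1, a co-receptor for semaphorins and VEGF, had 2.03, 6.70 and 17.3 FPKM in nitrite and 0.70, 3.65 and 11.6 FPKM in PBS, with co-treatment differences of 0.52, 0.46 and 0.47. granulin, annotated under that name apart from grn and one of the more abundant transcripts, had 2224, 1816 and 2978 FPKM in nitrite and 1170, 1330 and 2013 FPKM in PBS. The second granulin symbol, grn, was also higher in all 3 pairs, at 54.8, 70.3 and 41.0 FPKM in nitrite and 14.2, 54.3 and 33.6 FPKM in PBS; near-identical copies may share reads.

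Some of the 12 went the other way or varied with bacteria. slco2a1, a prostaglandin transporter, was at 0.63, 5.53 and 14.5 FPKM in nitrite and 0.12, 3.05 and 4.80 FPKM in PBS, and its co-treatment differences were -0.39, -0.72 and 0.03. fasn, fatty acid synthase, had 1.58, 3.58 and 14.2 FPKM in nitrite and 0.50, 2.42 and 9.36 FPKM in PBS, with co-treatment differences of -0.15, 0.32 and -0.12. socs1, an inhibitor of cytokine signalling, had 8.11, 11.7 and 15.1 FPKM in nitrite and 4.39, 9.10 and 11.4 FPKM in PBS, with co-treatment differences of 0.23, -0.28 and 0.56. The spread over replicate numbers in these genes was wider than the difference within a number.

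By the size of p, 5 further named genes stood at the higher end besides me1. gadd45b, a stress-induced regulator of MAP kinase signalling, had 29.9, 29.4 and 36.7 FPKM in nitrite and 11.9, 23.4 and 24.4 FPKM in PBS, without overlap, and was above 0 in all 3 co-treatment pairs at 0.76, 0.61 and 0.30. ppox, which makes protoporphyrin in heme synthesis, had 8.29, 8.0 and 9.56 FPKM in nitrite and 3.44, 6.52 and 6.91 FPKM in PBS, without overlap. tfec, a factor of the MiT family expressed in macrophages, had 13.4, 12.6 and 15.7 FPKM in nitrite and 9.59, 10.2 and 10.2 FPKM in PBS, also without overlap. These last genes did not differ in a like way with bacteria: ppox was at -0.15, -0.03 and 0.01 and tfec at -0.10, 0.10 and -0.01. The others were the scavenger receptor scarf1, at 0.53, 0.40 and 0.24, and the RNA polymerase III subunit polr3c, at 0.74, 0.45 and 0.27.

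At the lower end of the ranking stood tcp11, tusc2, lrrc19, ptgr2, rtn1, lrif1, tprg1l, ak3, klf12, ak4, psmc3ip and tlr5, with log2 differences of -0.68 to -0.41. The last inside, tlr5, and the first outside, pnpla6, both had a smallest pair difference of -0.31. Of the 12, 5 were below 0 in all 3 co-treatment pairs, where 24% of all genes were, and their median there was -0.08. Several of these genes were at low levels in every library with bacteria, lrrc19 for example at 0.03 to 0.33 FPKM, near the floor of the log2(FPKM + 1) scale.

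tlr5, the receptor of bacterial flagellin, was at 108, 60.2 and 25.3 FPKM in nitrite replicates 1, 2 and 3, against 226, 74.9 and 34.5 FPKM in PBS. The nitrite library was the lower in each pair, while values differed more between replicate numbers than within a pair. ak3, a mitochondrial adenylate kinase, had 51.3, 37.5 and 26.9 FPKM in nitrite and 105, 47.8 and 35.1 FPKM in PBS, with a log2 difference of -0.58 ± 0.16, -0.36 ± 0.13 without pair 1, and co-treatment differences of -0.21, -0.56 and -0.70. Its relative ak4 had 29.3, 22.7 and 10.4 FPKM in nitrite and 61.6, 28.9 and 14.6 FPKM in PBS, with co-treatment differences of -0.06, 0.03 and -0.05. psmc3ip, a recombination cofactor that is no part of the proteasome despite its symbol, was at 10.99, 8.48 and 10.2 FPKM in nitrite and 25.5, 12.3 and 13.0 FPKM in PBS, without overlap, and was below 0 in all 3 co-treatment pairs.

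The lower genes with the smallest p added 3 names. emb, embigin, a chaperone of lactate transporters, had 730, 545 and 447 FPKM in nitrite and 1836, 761 and 545 FPKM in PBS. plekhj1 had 49.4, 46.2 and 31.1 FPKM in nitrite and 98.9, 54.3 and 43.2 FPKM in PBS. lg20h1orf174, a symbol without a stated function, differed by -0.81, -0.39 and -0.21. emb and plekhj1 were below 0 in the 3 co-treatment pairs too, at -0.25, -0.36 and -0.49 for emb and at -0.20, -0.40 and -0.52 for plekhj1. The unadjusted limma p was 0.0108 for emb and 0.00639 for plekhj1, and 0.0227 and 0.0224 for these genes without pair 1.

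**Figure D5:**
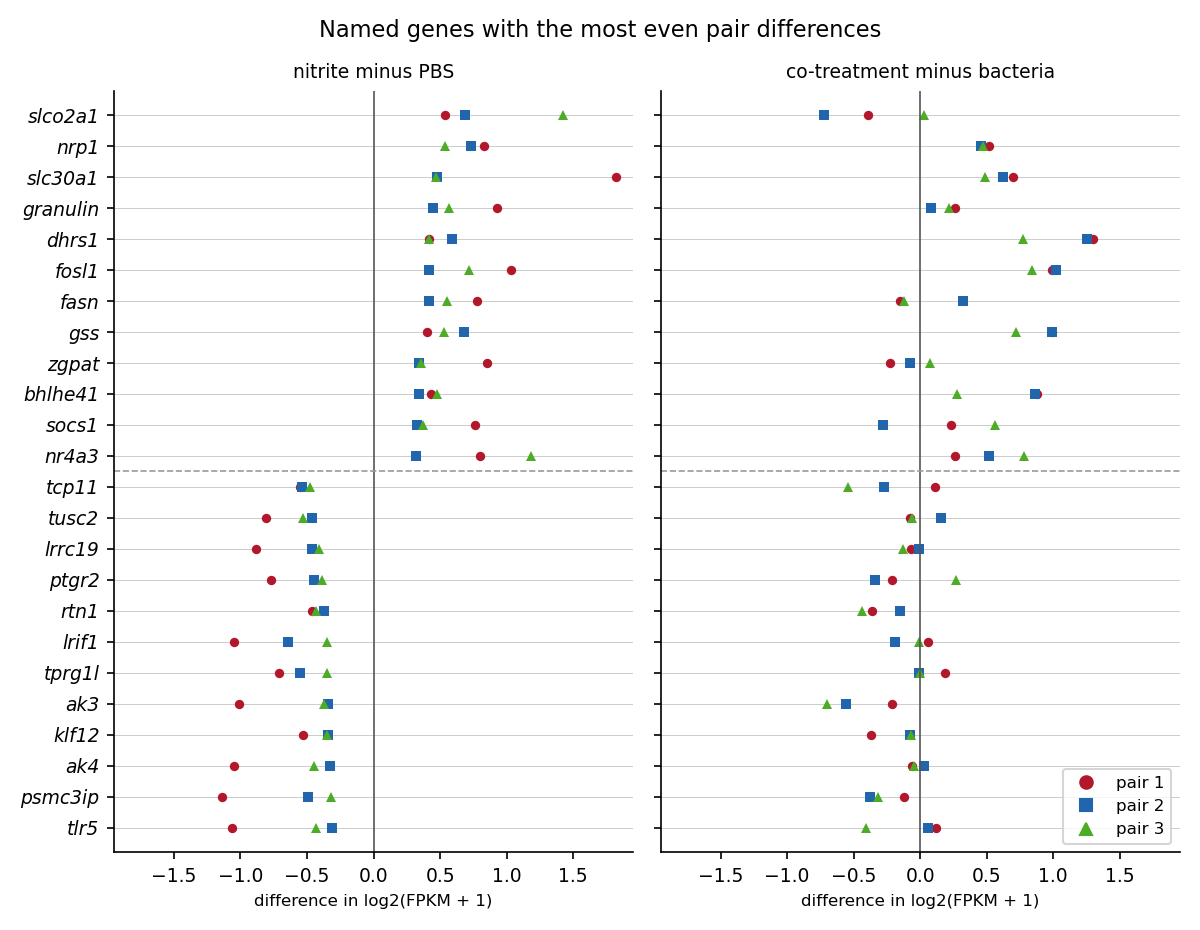
Pair differences in log2(FPKM + 1) of 12 higher (above the dashed line) and 12 lower genes, for nitrite minus PBS (left) and co-treatment minus bacteria (right). The values on the left chose the genes, by the size of the smallest of the 3 differences. The title calls these the most even, but the 3 differences of a gene can be unequal. On the right, 8 of the 12 higher genes have all 3 points above 0 and 5 of the 12 lower genes have all 3 below 0.

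Of 14 tested genes of iron and heme handling, 6 were above 0 in all 3 pairs of nitrite minus PBS, where 13.2% of all genes were, and none was below 0 in all 3. In both pairs 2 and 3, 7 were above 0, where 27% of all genes were, and none below. In the co-treatment libraries 6 were above 0 in all 3 pairs, where 21.1% of all genes were, and 2 below, but in part other genes. steap4 differed by 0.01, 0.04 and 0.20 in nitrite minus PBS, and by -0.60, -0.57 and -0.35 in co-treatment minus bacteria. Besides ppox, cpox, the enzyme before it in the pathway, had 11.7, 10.5 and 15.0 FPKM in nitrite and 6.14, 8.24 and 13.1 FPKM in PBS. alad, which makes porphobilinogen, had 18.7, 27.3 and 33.2 FPKM in nitrite and 9.04, 24.4 and 30.1 FPKM in PBS, and hmbs, the next enzyme, differed by 0.09, 0.23 and 0.32, and urod, which follows in the pathway, by 0.76, 0.05 and 0.14. The heme synthesis genes uros and fech, the last enzyme, had no common sign, at -0.51, 0.29 and -0.01 for uros and -0.15, -0.04 and 0.03 for fech. The iron exporter slc40a1 was close to 0, at 0.02, 0.10 and -0.16, and was above 0 in the 3 co-treatment pairs, at 0.66, 1.15 and 0.93. In both pairs 2 and 3 and all 3 co-treatment pairs, 2 of the 14 genes were above 0.

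Mitochondrial and lysosomal lists had more members above than below 0 in pairs 2 and 3, where 27% of all genes were above and 27.1% below 0 in both. For the co-treatment counts that follow, 21.1% of all genes were above 0 in all 3 pairs and 24% below. Of 73 mitochondrial ribosomal protein genes, 39 were above 0 and 8 below 0 in both pairs 2 and 3, with medians of 0.08 and 0.11; in the co-treatment libraries 18 were above and 5 below 0 in all 3 pairs. Oxidative phosphorylation genes had a median of 1.0 in pair 1, but 0.03 and 0.10 in pairs 2 and 3, where 22 of 45 were above and 3 below 0 in both; 13 were above and none below 0 in all 3 co-treatment pairs. Cytosolic ribosomal protein genes showed the largest effect of PBS replicate 1 among the lists: the median over 66 genes was 2.62 in pair 1, -0.15 in pair 2 and 0.12 in pair 3. Of 27 lysosome and phagosome genes, 14 were above 0 and 2 below 0 in both pairs 2 and 3, with a median of 0.25 in pair 2 and 0.00 in pair 3. ctsd, the protease cathepsin D, was at 1250, 1217 and 1114 FPKM in nitrite and 1120, 958 and 971 FPKM in PBS. With bacteria, 8 of the 27 were above and 11 below 0 in all 3 pairs.

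Genes that handle nitrite and nitric oxide gave few values. Of 34 symbols listed, 16 were in the table and 8 were tested; nos1, xdh and cygb were under 1 FPKM, and nos2 was not matched by symbol. suox, a molybdenum enzyme of the sulfite oxidase family, was at 0.16, 0.31 and 1.09 FPKM in nitrite and 0.03, 0.18 and 0.66 FPKM in PBS, near the floor of the scale. asl, which recycles citrulline to arginine, had 5.27, 3.73 and 5.74 FPKM in nitrite and 3.14, 2.78 and 5.46 FPKM in PBS. arg2, the arginase that competes with nitric oxide synthesis for arginine, was at 11.5, 17.0 and 52.4 FPKM in nitrite and 15.9, 21.4 and 46.1 FPKM in PBS. Its sign differed between pairs, at -0.43, -0.31 and 0.18. Of the 10 tested genes of anion exchange and chloride transport, 4 were above and 2 below 0 in all 3 pairs. Over all genes, 13.2% were above and 17.5% below 0 in all 3. slc4a2, a chloride-bicarbonate exchanger, was at 36.0, 30.3 and 36.8 FPKM in nitrite and 29.7, 26.8 and 36.3 FPKM in PBS.

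Of the 5 tested genes of the cytokine and chemokine list, 1 was above and 1 below 0 in all 3 pairs, where 13.2% and 17.5% of all genes were. The 1 above was acod1, an enzyme gene near the floor of the scale, and the 1 below was il34. il-8, a neutrophil chemokine, was at 2.91, 9.12 and 14.1 FPKM in nitrite and 2.02, 8.72 and 18.6 FPKM in PBS, with no common sign. acod1, which makes itaconate in activated macrophages, was at 1.01, 0.65 and 2.95 FPKM in nitrite and 0.31, 0.47 and 1.46 FPKM in PBS, above 0 in all 3 pairs at 0.62, 0.17 and 0.68, and below 0 in the 3 co-treatment pairs, at -0.43, -1.02 and -0.26. il34, a ligand of the macrophage growth factor receptor, was at 16.1, 9.66 and 12.7 FPKM in nitrite and 31.96, 15.5 and 13.6 FPKM in PBS, below 0 in all 3 pairs. The 20 tested genes of NF-κB and its feedback had medians of 0.12, 0.00 and 0.06 over pairs 1, 2 and 3. nfkb2 and nfkbia show how pair 1 behaves: nfkb2 was at 70.1, 62.5 and 59.6 FPKM in nitrite and 3.26, 62.0 and 56.7 FPKM in PBS, and nfkbia, the NF-κB inhibitor, at 46.7, 36.7 and 34.5 FPKM in nitrite and 5.20, 37.1 and 33.0 FPKM in PBS. The pair 1 differences were 4.06 for nfkb2 and 2.94 for nfkbia, and those of pairs 2 and 3 lay between -0.01 and 0.07.

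For the counts over all 3 nitrite minus PBS pairs that follow, 13.2% of all genes were above 0 and 17.5% below. Of 11 tested heat shock genes, 2 were above and 1 below 0 in all 3 pairs. In both pairs 2 and 3, 6 were above and 1 below 0, where 27% and 27.1% of all genes were. In the co-treatment libraries 5 were above 0 in all 3 pairs, where 21.1% of all genes were, and 1 below. hsp70 was at 1475, 1324 and 1447 FPKM in nitrite and 1579, 1276 and 1334 FPKM in PBS. hspd1, the mitochondrial chaperonin, was higher in nitrite in all 3 pairs, at 19.7, 29.0 and 69.6 FPKM against 9.04, 26.1 and 58.5 FPKM in PBS. bag3, a co-chaperone of selective autophagy, was also higher in all 3 pairs, at 11.5, 6.04 and 4.71 FPKM against 5.47, 3.64 and 4.15 FPKM in PBS, while the heat shock factor hsf2 was lower, at 8.72, 7.60 and 7.46 FPKM in nitrite against 15.5, 9.59 and 8.88 FPKM in PBS. Of the 21 tested genes of the unfolded protein and amino acid response, 4 were above 0 and 0 below 0 in all 3 pairs, with medians of 0.08 and -0.02 in pairs 2 and 3. Of 38 DNA repair genes, 6 were above and 5 below 0 in all 3 pairs. Of the fixed panel of 40 stress and immune symbols, 26 were tested, 7 were above and 2 below 0 in all 3 pairs, and none was called.

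Markers of cell types were measured because bulk RNA mixes cells, and in such samples fewer cells of a type and less RNA per cell cannot be told apart. Of 10 general leukocyte symbols 4 were tested, and the other 6, ptprc among them, were not matched by symbol. lcp1, a leukocyte actin-bundling protein, was at 621, 663 and 913 FPKM in nitrite and 528, 651 and 876 FPKM in PBS, higher in each pair. The other 3 were below 0 in both pairs 2 and 3 and in all 3 co-treatment pairs. spi1, the myeloid factor PU.1, was at 479, 467 and 514 FPKM in nitrite and 984, 515 and 541 FPKM in PBS, with groups that did not overlap, as in 2.91% of all genes. ikzf1, a lymphoid factor, differed by 0.42, -0.38 and -0.06, and the Wiskott-Aldrich gene by 0.39, -0.32 and -0.08. The single eosinophil marker tested, epx (eosinophil peroxidase), was at 6661, 5124 and 4983 FPKM in nitrite and 4714, 6764 and 6381 FPKM in PBS, higher in pair 1 and lower in pairs 2 and 3. The 7 macrophage markers in the table, 6 of them tested, took 0.217% to 0.470% of the FPKM sum in nitrite libraries and 0.236% to 0.393% in PBS libraries. The 4 neutrophil markers tested took 0.0748% to 0.143% in nitrite and 0.106% to 0.139% in PBS. The 7 B cell markers tested took 0.0494% to 0.0596% in nitrite and 0.0534% to 0.104% in PBS. The 6 thrombocyte markers in the table, 5 of them tested, took 0.0226% to 0.0623% in nitrite and 0.0231% to 0.0519% in PBS. All these ranges overlapped, and none of these lists had a common sign over the 3 replicate numbers. The 5 T and NK cell markers in the table, 4 of them tested, took 0.215%, 0.0993% and 0.184% in nitrite replicates 1, 2 and 3. In PBS they took 0.465%, 0.126% and 0.195%, above nitrite within each number. Granzyme alone held nearly all of these shares, so they do not describe the other markers of the list. The medians of the 4 tested were -0.47, 0.01 and 0.10 in pairs 1, 2 and 3. Granzyme transcripts were at 1041, 483 and 916 FPKM in nitrite and 1957, 623 and 951 FPKM in PBS, lower in each pair; lck, a T cell kinase, differed by -0.16, 0.44 and 0.35, tbx21 by 0.47, -0.04 and 0.24, and cd3e by -0.79, 0.06 and -0.04. Of the 5 progenitor markers tested, 4 were below 0 in both pairs 2 and 3, where 27.1% of all genes were. Among them were cebpa at -0.38 and -0.09 and myb at -0.39 and -0.19. In all 3 pairs 1 of the 5 was below 0, where 17.5% of all genes were, and the median of the 5 in pair 1 was 0.07. Of 12 erythroid symbols 1, gata1, was in the table, under 1 FPKM. The part of cell makeup in the gene differences above was not tested.

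Unnamed LOC identifiers held 14 of the 16 genes with all 3 pair differences of at least 0.5, where 6756 of all 12423 tested genes carried a name. LOC109202005, which had the lowest unadjusted limma p of the whole comparison (0.000118), was at 8.21, 15.4 and 13.9 FPKM in nitrite and 3.39, 8.44 and 5.85 FPKM in PBS, a log2 difference of 1.00 ± 0.16, and of 0.96 ± 0.18 without pair 1 (unadjusted p 0.000892). It rose in the second measurement, with 17.1, 33.0 and 27.0 FPKM in co-treated cells, against 4.79, 7.57 and 10.01 FPKM with bacteria (limma adjusted p 0.00882). LOC100692265, chosen after its values were seen, was at 27.4, 18.7 and 39.6 FPKM in nitrite and 18.0, 9.0 and 19.5 FPKM in PBS, 0.85 ± 0.14, or 0.98 ± 0.13 without pair 1, and rose to 23.7, 18.0 and 31.0 FPKM in co-treated cells, against 8.86, 4.62 and 12.2 FPKM with bacteria (limma adjusted p 0.00882). These are 2 of the 4 genes called for co-treatment against bacteria, and both were higher in every pair of both measurements. The calls rest on the pairing and on single libraries: the limma adjusted p of both was 1.0 without the replicate term, and 0.0852, 0.113 and 0.0667 without co-treatment replicate 1, 2 or 3. It was 0.0926 for both without bacteria replicate 1, and 0.0664 for LOC109202005 and 0.138 for LOC100692265 without bacteria replicate 2. Without bacteria replicate 3 it was 0.0176 for LOC109202005 and 0.0653 for LOC100692265. On the lower side LOC100710893 was at 2.72, 1.41 and 0.54 FPKM in nitrite and 7.96, 4.98 and 2.21 FPKM in PBS, a log2 difference of -1.21 ± 0.25, or -1.19 ± 0.26 without pair 1, and 0.65 to 1.27 FPKM in co-treated cells and 0.70 to 1.07 FPKM with bacteria. The table does not pair these identifiers with names.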

How the data were processed

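RNA sequencing was done on 12 libraries, 3 in each of 4 groups, and the 6 of nitrite and PBS are the ones compared here. The authors deposited FPKM per transcript, given to 2 decimals, for 58070 transcripts under 28921 symbols, per the file headers. Per the submitters' processing notes, the tools were Trimmomatic 0.30, HISAT2 2.0.1 and HTSeq 0.6.1. The build, the annotation and the FPKM software are each not given in the sources used here. FPKM hold no counts, so absolute depth is unknown; relative depth, read from the steps of low values, differed by 1.43 times over the 12 libraries and by 1.21 times without PBS replicate 1. No libraries held identical values. An exact 0 can be a failed estimate.

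Transcripts were summed per symbol with pandas 2.3.3, genes with a mean under 1 FPKM were left out, and log2(FPKM + 1) of all 12 libraries was fitted with limma 3.58.1 in R 4.3.3, with group and replicate number as terms and a mean-variance trend. Benjamini-Hochberg adjustment ran over 12423 genes with a threshold of 0.05. The fit was tested on simulated data in which 100 genes were changed by 1 and 100 by 2 in log2. It called 70 and 96 of these with the right sign, and 10 genes falsely. The simulated noise of a gene was alike in all libraries, so data with an outlying library such as PBS replicate 1 were not tested. Replicate numbers come from the titles and were taken to pair libraries, because deviations from the group mean correlated across genes in each of the 18 same-number pairs of libraries (r of 0.416 to 0.919). No r between different numbers was above -0.0044. Deviations within a group cancel out, so negative values between different numbers are partly built in.

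Genes named are the 12 higher and 12 lower genes with the largest smallest pair difference and at least 5 FPKM in the higher group, the 6 with the smallest p in each direction, a panel of 40, and up to 4 members of each list in each direction. Of the 161 such genes those given were chosen after their values were seen. Other members of 5 lists, 16 proteasome partners and 2 unnamed identifiers were added in the same way. The comparison, the lists and the panel were chosen with earlier results of these data known. Lists were matched by symbol only. Alternatives were other pseudocounts, filters, scalings, transcript choices, fits and left-out libraries.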

Additional observations from a re-analysis of the deposited data

Results flagged for a closer look

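LOC100692258 was the only gene with an interaction of nitrite and bacteria past the limma threshold (adjusted p 6.32e-09), which rests on listed values of 0. It was at 10335, 9187 and 9558 FPKM in nitrite and 9527, 7295 and 8120 FPKM in PBS. It was listed at 0 in all 3 co-treatment libraries, against 17476, 20799 and 18950 FPKM in the 3 bacteria libraries. No fold is given, since a listed 0 in a table without counts can be a failed estimate. Groups of 3 libraries are too small for a test of single outlying samples, and PBS replicate 1 is described with the results.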

How the results depend on the processing

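Nitrite against PBS gave 0 genes called under each of the 25 alternatives, 12 of which left out 1 library, and the lowest adjusted p of any gene was 0.237, without PBS replicate 1. The number at an unadjusted p under 0.05 ran from 27 to 1820. None of 241 genes was called under any alternative. The sign changed beyond the SE for 2 of them, where the highest transcript stood for each symbol: hmga2 (1.24) and clcn2 (-0.38). The 16 genes with 3 pair differences of at least 0.5 became 41 at a pseudocount of 0.1, 6 at a pseudocount of 3, 9 at a minimum mean of 5 FPKM and 36 with the highest transcript per symbol. With fewer pairs required they became 43 without pair 1 or without the 4 libraries numbered 1, and 43 to 108 with 1 library left out.

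For co-treatment against bacteria the 4 calls became 7 without a filter, 13 without pair 1, and 1 to 12 with 1 library left out. They became 1 with no replicate block, 1 without the 4 libraries numbered 1, and 1 without both pair 1 and the block, LOC100692258 in each case. For nitrite against PBS the number at an unadjusted p under 0.05 was 489 with the block and 74 with no replicate block; the block changed no call there. The interaction called 1 gene under every alternative that could give it. Proteasome genes above 0 in pairs 2 and 3 numbered 27 wherever both pairs were kept, and 29 in pair 3 alone. In all 3 co-treatment pairs they numbered 24 to 26, and 27 where pair 1 of these was lost. Their median of nitrite minus PBS lay between 0.15 and 0.44. The ranges were 0.35 to 0.58 for gclc, 0.30 to 0.56 for gclm, 0.16 to 0.92 for gss, 0.46 to 0.99 for me1 and 0.47 to 2.32 for sqstm1, the widest of these.

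FPKM give no depth, so no limit of detection can be set. With 3 pairs, 1 of them spread over several times the range of the others, differences near 0.2 could not be told from 0 for single genes. Larger ones did not pass either: LOC109202005, at 1.00, and LOC100710893, at -1.21, had a limma adjusted p of 0.675. The lack of calls therefore does not show that larger differences were absent. The fits without the 4 libraries numbered 1, and without both pair 1 and the block, were added after seeing the data. The causes of these changes were not tested.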
